A study of Mus musculus with 4 samples.

Results

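Chondroitin sulfate is a long sugar chain that cells attach to proteins and then secrete or display at their surface. Chpf2 encodes chondroitin polymerizing factor 2, a Golgi glycosyltransferase that takes part in extending the chain. The genes described here are Chpf2 and the other enzymes that start and build chondroitin sulfate, followed by nuclear run-on sequencing (PRO-seq) before and after degradation of the zinc-finger protein Zfp574. The list holds 10 genes, picked by name from the deposited table of 12486 genes. It was put together around Chpf2, and Chpf2 was chosen by its fall in this same comparison. Its change is therefore described below with no test. Of the 10 genes, 8 were in the table and all 8 passed the filter on low counts. Chsy3 and Csgalnact1 were not among the rows of the table and were not analysed here.

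The samples were 4 libraries of mouse embryonic stem cells (mESCs) whose Zfp574 protein is tagged at its N terminus with an auxin-inducible degron (AID). All 4 came from the same AID-Zfp574 line, which was selected as a clone, so that controls and depleted cells alike carry the tag and the constitutively expressed OsTir1, the plant F-box protein that recognizes the degron. The 2 control libraries came from untreated cells (0 h) and the 2 depletion libraries from cells given 500 µM of the auxin indole-3-acetic acid (IAA) for 6 h. Cells without the tag that received IAA were not analysed here, so loss of Zfp574 and other effects of IAA cannot be told apart. The labels call the replicates biological.

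PRO-seq marks the last base of RNA that is being made, and a count per gene is a count of engaged RNA polymerase, not of finished mRNA or enzyme. Column totals lay between 3298864 and 6045216 reads, with the depletion libraries deeper than the controls, and values are given as CPM, counts scaled to library size. Zfp574 itself had 80 and 130 reads in the controls against 195 and 219 after depletion, and since the degron acts on the protein these counts do not check the depletion (log2 fold change 0.25, standard error 0.14, adjusted p 0.406 in edgeR). Of 10 markers of mESCs, 8 were in the table, among them Pou5f1, Sox2 and Nanog, with a summed level of 2735 and 2765 CPM in the controls and 2767 and 2724 CPM after depletion. Most of this sum was Esrrb, with means of 1764 CPM in the controls and 1744 CPM after depletion. Of these 8, Utf1 was lower (log2 fold change -0.61, adjusted p 0.00358 in edgeR) and the other 7 did not pass. Of 10 markers of differentiated cells and fibroblasts, 3 were in the table, with a summed level of 6.61 and 12.8 CPM in the controls and 13.3 and 15.5 CPM after depletion, most of it Pax6 (log2 fold change 0.56, adjusted p 0.224 in edgeR). Gata4, Gata6, T, Col1a1, Col1a2, Acta2 and Afp were not among its rows. The part of other cells in the values below was not tested.

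Synthesis runs in 3 stages, and the members are described below from the last stage back to the first. A tetrasaccharide linker is first built on a serine of the core protein, beginning with xylose added by Xylt1 or Xylt2, followed by galactose added by B4galt7 and, at its end, glucuronic acid added by B3gat3. Heparan sulfate is built on the same linker. Csgalnact1 and Csgalnact2 then add the N-acetylgalactosamine that commits the chain to chondroitin. Chsy1, Chsy3, Chpf and Chpf2, which form 1 family, extend it with alternating glucuronic acid and N-acetylgalactosamine. In embryonic stem cells, chondroitin and heparan sulfate are both present at the surface and are known for binding growth factors.

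The promoters come first, because the Chpf2 promoter held a short sequence that recurred among the genes that fell with it. RefSeq promoters (GRCm38.p6, the assembly called mm10) span 250 bases before to 50 after the annotated start. They were found for 7 of the 8 members in the table, all but Xylt1. Each 8-base sequence of the Chpf2 promoter was looked up, on both strands, in the promoters of 9295 tested genes matched by symbol, of which 34 were among the 38 genes lower by at least 2-fold at an adjusted p under 0.05. Of the 8-base sequences held by at least 5 of these 34 genes, ACCATAGA had the highest share relative to all genes. It was picked for this, so the shares below describe these promoters and test nothing. The Chpf2 promoter (chr5:24586494-24586793, plus strand) held it on the coding strand at 79 and at 36 bases before the start. The promoter of Chpf (chr1:75479422-75479721, minus strand), the member most like Chpf2 by name and known function, is shown for comparison and held none. Capitals mark ACCATAGA.
Chpf2: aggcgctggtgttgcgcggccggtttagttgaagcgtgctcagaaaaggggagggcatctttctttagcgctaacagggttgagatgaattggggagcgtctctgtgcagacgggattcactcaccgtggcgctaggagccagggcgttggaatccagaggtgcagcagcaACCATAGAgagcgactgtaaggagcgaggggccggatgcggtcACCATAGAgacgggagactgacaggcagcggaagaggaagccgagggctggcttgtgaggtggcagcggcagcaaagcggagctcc
Chpf: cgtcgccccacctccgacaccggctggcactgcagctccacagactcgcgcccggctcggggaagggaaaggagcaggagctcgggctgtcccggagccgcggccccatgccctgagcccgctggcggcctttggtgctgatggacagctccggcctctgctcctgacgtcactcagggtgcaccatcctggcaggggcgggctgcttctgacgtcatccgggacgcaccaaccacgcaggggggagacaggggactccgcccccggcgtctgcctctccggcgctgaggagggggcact

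ACCATAGA was in the promoters of 8 of the 34 genes lower by 2-fold (23.5%), Chpf2 included, and of 82 of all 9295 genes (0.882%). The overlapping sequence CCATAGAG was in 10 of the 34 (29.4%) and in 122 of all (1.31%). Another overlapping sequence of the Chpf2 promoter, CATAGAGA, was in 7 of the 34 (20.6%) and in 92 of all (0.990%). None of the promoters of Chpf, Chsy1, Csgalnact2, Xylt2, B4galt7 or B3gat3 held ACCATAGA on either strand, but that of Xylt2 held CATAGAGA. The matches of the 8 genes are shown with 11 bases on each side, turned so that all read ACCATAGA, to let the flanks be compared. Coordinates and strand are those of each printed window in GRCm38.p6.
Zkscan8 (chr13:21531138-21531167, minus strand): tttgctggcctACCATAGAgctgtcagacc
Xrn1 (chr9:95954736-95954765, minus strand): aggtccgccagACCATAGAgcaaaccgtgg
Ercc1 (chr7:19345008-19345037, plus strand): ggtcctccaggACCATAGAgagcagcgcga
Timm10 match 1 (chr2:84826907-84826936, minus strand): gactccaaagtACCATAGAatgctgagtga
Timm10 match 2 (chr2:84826952-84826981, minus strand): ggaaaccggctACCATAGAgaaaccgacct
Polq (chr16:37011705-37011734, minus strand): ataacccgactACCATAGAgtggtgaggga
Rpl10 (chrX:74270784-74270813, minus strand): ccactgtaacaACCATAGAgttacagccag
Chpf2 match 1 (chr5:24586654-24586683, plus strand): gtgcagcagcaACCATAGAgagcgactgta
Chpf2 match 2 (chr5:24586697-24586726, plus strand): cggatgcggtcACCATAGAgacgggagact
Trip11 (chr12:101913131-101913160, plus strand): aagcggcagtgACCATAGAgaagcttcgcg

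In 9 of these 10 windows the next base was G. All matches but that of Trip11 lay before the start, from 13 bases in Xrn1 to 103 in Timm10, and 4 of the 10 (both of Chpf2, and those of Zkscan8 and Ercc1) ran in the direction of transcription. Most matches in the genes not lower by 2-fold were also followed by G. Most of them also lay before the start, as does most of each promoter window. Neither feature is therefore particular to the 8 genes. Only 5 of the 82 genes held more than 1 match in a promoter, and Chpf2 and Timm10, which encodes a chaperone of mitochondrial import, were the only 2 of the 5 that were lower by 2-fold. The other 3 had log2 fold changes of -0.20 (Sh2b1), -0.14 (Rnf216) and 0.18 (Zfp142), so more than 1 copy did not go with a large fall in each gene. Over all 82 genes the median log2 fold change was -0.17 and 62 were below 0, beside a median of -0.002 and 5995 of 11853 below 0 over all genes tested. Leaving out the 8 genes from which the sequence was found, the other 74 had a median of -0.15 and 54 were below 0. Some of them share 1 promoter with a gene on the other strand and so hold the same match. These values describe the same libraries in which the sequence was found.

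**Figure D1:**
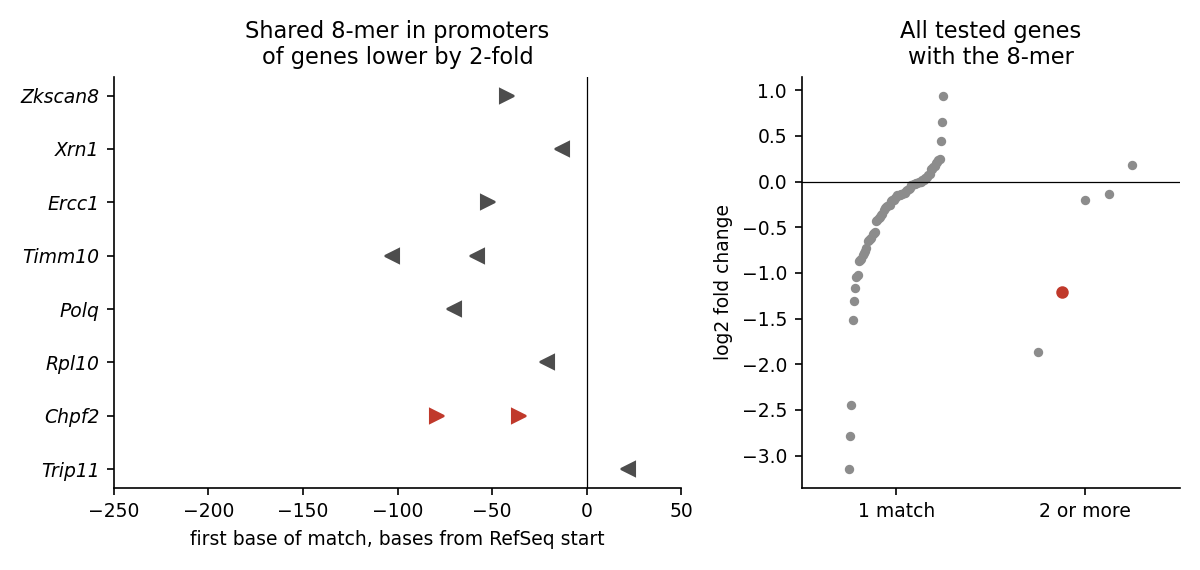
Left, position of the first base of each match to the shared 8-base sequence, in bases from the RefSeq start, in the 8 promoters of genes lower by 2-fold (right-pointing triangles, in the direction of transcription; left-pointing, against it; Chpf2 in red). Right, log2 fold change (6 h depletion over 0 h control) of all 82 tested genes with the sequence, 77 with 1 match and 5 with more, where 62 of the 82 points lie below 0 and Chpf2 is in red.

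Other promoter sequences differed among the members. Matches on either strand were counted for 8 exact sequences in the promoters of 27025 genes. These are all genes with a RefSeq promoter, not the tested genes alone as above. CCAAT, the box bound by NF-Y, was in the promoters of Chpf2, Chsy1 and B3gat3 and in 41.1% of all. GGGCGG, a GC box, was in those of Chpf, Chsy1, Csgalnact2 and Xylt2 and in 38.2% of all, but not in that of Chpf2. TGACGTCA, the cyclic AMP response element, occurred in the Chpf promoter alone among the 7 members, at 2 places, against 2.03% of all. By GENCODE positions, which differ here from RefSeq, this promoter lies wholly before the Chpf start. It also holds the start of Tmem198, a gene on the opposite strand. CCGGAAG, an ETS site, was in the promoters of Csgalnact2 and B3gat3 and in 9.93% of all, and CACGTG, an E-box, in that of Chsy1 and in 8.09% of all. TATAAA (15.7% of all), ATGGCGG (YY1, 4.69%) and GCATGCGC (NRF1, 3.05%) were in no member's promoter. GC content ranged from 48.3% in B4galt7 to 71.7% in Chpf, with 60.3% in Chpf2.

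Chpf2 (ENSMUSG00000038181, chr5:24586741-24594556, plus strand, mm10) carried less polymerase after depletion. It had 117 and 124 reads in the controls against 96 and 77 in the deeper depletion libraries. Scaled to the TMM-adjusted library sizes, these were 35.2 and 33.8 CPM against 16.1 and 13.7 CPM, or 34.5 ± 0.932 CPM (SD, n = 2) and 14.9 ± 1.71 CPM. Both depletion libraries lay below both controls, and the gap between the groups was many times the gap within either. Chpf2 was chosen by this fall, so the gap and the interval below describe it, may overstate it and test nothing. The log2 fold change was -1.20 (SE 0.15, 95% interval -1.502 to -0.91), which leaves 43.4% of the control level. Among the 38 genes lower by 2-fold, 0.321% of the 11853 genes tested, Chpf2 had the 30th largest fall on the log2 scale. The smallest fall among the 38 was that of Pars2, at -1.02.

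The other family members in the table had log2 fold changes near 0. Chsy1 (ENSMUSG00000032640, chr7:66109515-66173798, plus strand), which carries both transferase activities of the chain-extending reaction, had 296 and 326 reads in the controls against 562 and 493 after depletion, or 89.0 and 89.0 CPM against 94.4 and 87.7 CPM. Its groups overlapped, and its log2 fold change was 0.03 with a 95% interval of -0.13 to 0.20. Chpf (ENSMUSG00000032997, chr1:75474569-75479307, minus strand), which like Chpf2 is known to act together with Chsy1, had 13 and 23 reads against 37 and 24, or 3.91 and 6.28 CPM against 6.22 and 4.27 CPM. Its replicates differed more than its group means, and its log2 fold change of 0.03 came with a 95% interval of -0.60 to 0.67, so that a moderate change in either direction was not detectable at this depth.

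**Figure D2:**
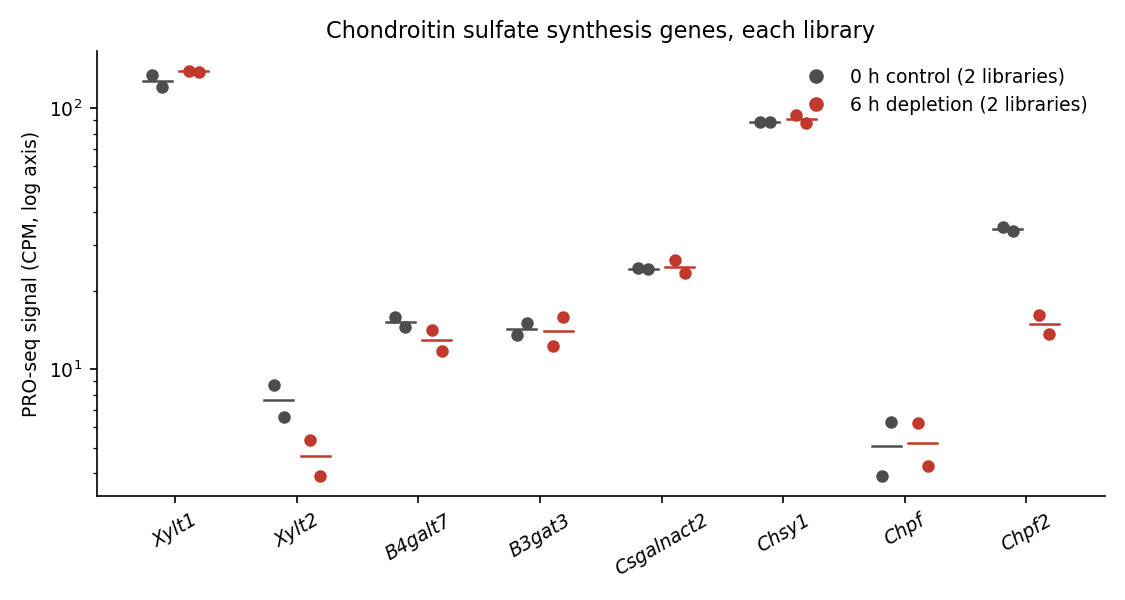
PRO-seq signal of the 8 members in CPM (log axis), with 1 point per library (grey, 2 controls; red, 2 depletion libraries) and a bar at each group mean. Chpf2 goes from 34.5 to 14.9 CPM, while the points of Chsy1, Chpf, Csgalnact2 and B3gat3 overlap between the groups.

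Csgalnact2 (ENSMUSG00000042042, chr6:118107452-118139140, minus strand), which starts the chondroitin chain on the finished linker, had 81 and 89 reads in the controls against 156 and 131 after depletion. These were 24.3 and 24.3 CPM against 26.2 and 23.3 CPM, with the controls between the depletion libraries. Its log2 fold change was 0.03, with a 95% interval of -0.26 to 0.32.

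Among the enzymes of the linker, the xylosyltransferases had values of opposite sign, neither of them past the threshold. Xylt1 (ENSMUSG00000030657, chr7:117380979-117673580, plus strand) had 447 and 441 reads in the controls against 827 and 777 after depletion, or 134 and 120 CPM against 139 and 138 CPM. Both of its depletion libraries lay above both controls, though by less than the controls differed from each other in CPM, and the log2 fold change was 0.12 with a 95% interval of -0.02 to 0.27. Xylt2 (ENSMUSG00000020868, chr11:94663851-94677515, minus strand), the isoform that acts in most tissues beside or in place of Xylt1, had 29 and 24 reads against 32 and 22, or 8.72 and 6.55 CPM against 5.38 and 3.92 CPM. Both depletion libraries lay below both controls, and the log2 fold change of -0.70 (SE 0.28, 95% interval -1.27 to -0.12) rests on few reads. Xylt2 did not pass the threshold.

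B4galt7 (ENSMUSG00000021504, chr13:55599896-55610443, plus strand), galactosyltransferase I of the linker, had 53 reads in each control against 84 and 66 after depletion, or 15.9 and 14.5 CPM against 14.1 and 11.7 CPM. The depletion libraries lay below the controls by a small margin, with a log2 fold change of -0.23 and a 95% interval of -0.61 to 0.15. B3gat3 (ENSMUSG00000071649, chr19:8920374-8927236, plus strand), glucuronosyltransferase I, had 45 and 55 reads against 73 and 89, or 13.5 and 15.01 CPM against 12.3 and 15.8 CPM. Its groups overlapped, and its log2 fold change was -0.03 with a 95% interval of -0.42 to 0.36.

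Of the 8 members tested, 1 (Chpf2) was below the controls and 0 above them at an adjusted p under 0.05 by edgeR's quasi-likelihood test, beside 1.40% of all genes lower and 1.11% higher. Since Chpf2 was chosen by this comparison, nothing is read from that count. Of the other 7 members, 0 passed in edgeR, DESeq2 or limma-voom, and 1 (Xylt2) was lower at an unadjusted p under 0.05, beside 7.66% of all genes lower and 8.53% higher at that threshold. Both depletion libraries lay below both controls in 2 of these 7 (Xylt2 and B4galt7), beside 22.9% of all genes. They lay above both in 1 (Xylt1), beside 23.4%. The median log2 fold change of the 7 members other than Chpf2 was 0.03, with 3 below 0. Summed over these 7, the level was 290 and 276 CPM in the controls and 298 and 285 CPM after depletion. The signs of the smallest values depend on the scaling: under size factors recovered from the authors' mean normalized signal, which put the median of all genes at -0.11, Csgalnact2 moved to -0.08, Chsy1 to -0.07 and Chpf to -0.07, while Chpf2 moved to -1.31 and Xylt1 stayed above 0 at 0.02.

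Divided by gene length, Chpf2 stood first among the members in the controls. After depletion, with the fall by which it was chosen, its libraries overlapped with those of B3gat3. With annotated gene spans from 4.74 kb in Chpf to 293 kb in Xylt1, the control levels were 4.41 ± 0.119 CPM per kb (SD, n = 2) for Chpf2, 2.08 ± 0.153 for B3gat3, 1.44 ± 0.0981 for B4galt7, 1.38 ± 0.000208 for Chsy1, 1.07 ± 0.354 for Chpf, 0.767 ± 0.00116 for Csgalnact2, 0.559 ± 0.112 for Xylt2 and 0.435 ± 0.0338 for Xylt1. Chpf2 was above 81.0% of the 11844 tested genes with a length, whose median was 1.52 CPM per kb, and each other member was at or below 60.3%. In this order Chsy1 lay between the replicates of B4galt7 (1.51 and 1.37), and Chpf (0.824 and 1.32) differed from Chsy1 above it and from Csgalnact2 below it by less than its own SD. The other neighbours in the order did not overlap, though Xylt2 (0.638 and 0.479) and Xylt1 (0.459 and 0.411) came close. After depletion Chpf2 was at 1.91 ± 0.219 and B3gat3 at 2.05 ± 0.368 CPM per kb, a difference smaller than either spread. Whole-gene counts include polymerase paused near the start, which weighs more in a short gene, so levels per kb compare genes only roughly. Per the methods, reads were counted over transcripts with CAGE-corrected starts, which can differ from the annotated spans used here.

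Within the family, the share of Chpf2 in the signal fell. This follows from the fall by which Chpf2 was chosen and is no separate result. Chpf2 gave 67.1% and 61.5% of the summed level per kb of Chpf2, Chpf and Chsy1 in the controls, and 42.6% and 43.6% after depletion. The sum went from 6.71 and 7.04 CPM per kb to 4.84 and 4.02. Chsy1 gave 20.6% and 19.7% of the sum in the controls and 30.3% and 34.0% after depletion, at levels per kb that overlapped between the groups. Chsy3, the remaining gene of the family, is not part of these sums.

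**Figure D3:**
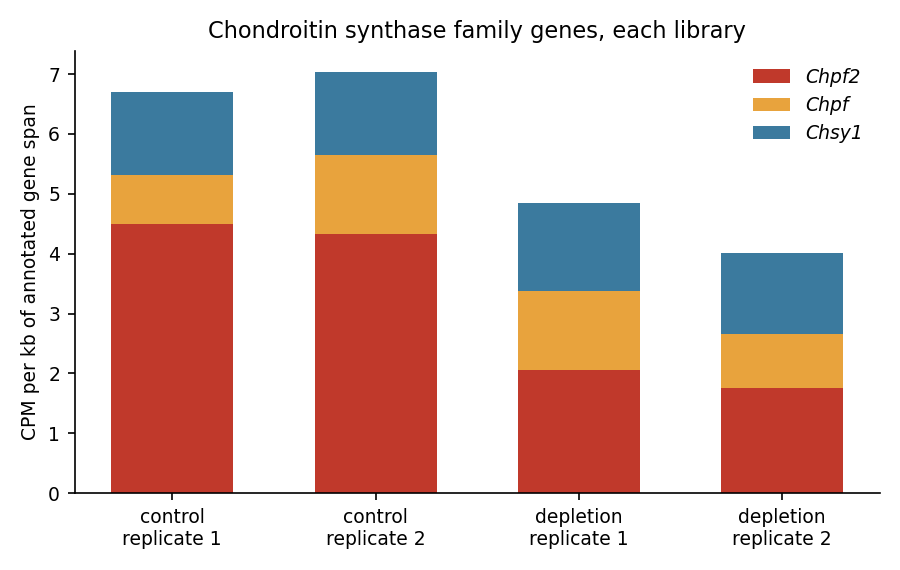
Level per kb of annotated gene span (CPM per kb, stacked from 0) of the 3 chondroitin synthase family genes in the table, with 1 bar per library. The red part, Chpf2, which was chosen by this comparison, shrinks from 4.50 and 4.33 in the controls to 2.06 and 1.75 after depletion. Chsy1 stays between 1.36 and 1.47 in all 4.

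Neither of the genes beside Chpf2 passed the threshold. The nearest start at lower coordinates in the table is that of Abcf2, an ATP-binding cassette protein gene on the minus strand (chr5:24565345-24577467), 9.27 kb away and pointing away from Chpf2. Abcf2 had 96 and 87 reads in the controls against 153 and 139 after depletion, and its log2 fold change was -0.05 with a 95% interval of -0.34 to 0.23 (adjusted p 0.905 in edgeR). On the other side Smarcd3, a subunit of SWI/SNF chromatin remodelling complexes, is read on the minus strand (chr5:24590818-24624411) and runs into the end of Chpf2, with which it shares 3739 bases, or 47.8% of the Chpf2 span. It had 42 and 40 reads in the controls against 49 and 46 after depletion, with both depletion libraries lower in CPM, and a log2 fold change of -0.51 with a 95% interval of -0.95 to -0.08, which did not pass the threshold (adjusted p 0.216 in edgeR). The methods turn each read to the direction of transcription but do not state that reads were counted by strand, so the values of Chpf2 and Smarcd3 may share reads where the genes overlap. The microRNA gene Mir671 lies inside Chpf2 on the same strand (chr5:24592114-24592211), in an exon of 2 of the 6 annotated Chpf2 transcripts, and has no row of its own. Among the other members, only Chpf has a gene of the table starting within 1000 bases on the opposite strand. This gene, Tmem198, starts 225 bases away and had 10 and 9 reads in the controls against 13 and 5 after depletion, a log2 fold change of -0.79 with a 95% interval of -1.79 to 0.20 (adjusted p 0.446 in edgeR).

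The profile of Chpf2 over the 4 libraries was most like that of Ssrp1, which encodes a subunit of the histone chaperone FACT. Likeness was the Euclidean distance between log2 CPM profiles, each centred on its own mean over the 4 libraries. The distance of Ssrp1 was 0.07, against a median of 1.218 over the 11852 other genes tested. Zfp35 (0.09), Rpl10 (0.18), AC166256.1 (0.19) and Trim52 (0.23) followed. Ssrp1 had 136 and 154 reads in the controls against 115 and 93 after depletion, a log2 fold change of -1.21 beside the -1.20 of Chpf2. Rpl10, a gene for a protein of the large ribosomal subunit, had 783 and 930 reads against 610 and 537. With 4 libraries in 2 groups, a short distance says mainly that a gene fell by a like amount. Of the 5, the promoter of Rpl10 held ACCATAGA, those of Ssrp1 and Trim52 did not, and Zfp35 and AC166256.1 had no promoter in the table.

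The rest of the pathway was followed over 85 further genes, of which 63 were in the table and 60 were tested. At an adjusted p under 0.05, 0 of the 60 were lower and 1 was higher in edgeR, beside 1.40% and 1.11% of all genes, and at an unadjusted p under 0.05, 4 were lower and 10 were higher, beside 7.66% and 8.53% of all genes. DESeq2 called 0 lower and 0 higher, and limma-voom 0 lower and 2 higher. The median log2 fold change of the 60 genes was 0.01, with 29 below 0, beside -0.002 over all genes.

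The other linker genes were close to no change. B3galt6, which adds the second galactose, had 160 and 179 reads in the controls against 281 and 239 after depletion, the largest change of the list at a log2 value of -0.11 (adjusted p 0.674 in edgeR). Fam20b, the xylose kinase, was at 0.03 and Pxylp1, the phosphatase that reverses it, at -0.02.

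Of 10 genes that sulfate or epimerize chondroitin and dermatan sulfate, 6 were tested and 0 passed in either direction, with 3 below 0 and a median of -0.004. At an unadjusted p under 0.05, which 7.66% of all genes passed as lower and 8.53% as higher, 0 were lower and 2 were higher. Chst12, a chondroitin 4-O-sulfotransferase, had the largest value, -0.39 with a 95% interval of -0.87 to 0.10, from 34 and 30 reads in the controls against 43 and 38 after depletion (adjusted p 0.447 in edgeR). Chst15, Ust and Dse had both depletion libraries above both controls, and Chst3, Dsel and Chst12 had both below. None of these differences passed the threshold.

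Heparan sulfate enzymes, which use the same linker, included the 1 gene of these 60 that rose. Of 20 listed, 12 were tested, with 1 higher, 0 lower, 4 below 0 and a median of 0.12. At an unadjusted p under 0.05, 1 was lower and 3 were higher (7.66% and 8.53% of all genes). Ext1, a subunit of the heparan sulfate polymerase, had 1693 and 2076 reads in the controls against 3728 and 3504 after depletion, or 509 and 567 CPM against 626 and 624 CPM. Both depletion libraries lay above both controls, by about as much as the controls differed from each other. The log2 fold change was 0.22 (SE 0.05), with an adjusted p of 0.0197 in edgeR's quasi-likelihood test. Hs3st1, a 3-O-sulfotransferase, had the largest value of the list, -0.41 (adjusted p 0.282 in edgeR), from 51 and 48 reads in the controls and 63 and 60 after depletion. Ext2, the other polymerase subunit, was at -0.02 with a 95% interval of -0.18 to 0.14. The call of Ext1 was lost with library totals, with the recovered size factors, in DESeq2, and without control replicate 1, depletion replicate 1 or depletion replicate 2.

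Of 12 enzymes that break down glycosaminoglycans, 11 were in the table and tested. Of these 11, 0 passed in either direction, with 7 below 0 and a median of -0.06. At an unadjusted p under 0.05, 2 were lower and 0 were higher (7.66% and 8.53% of all genes). The largest value of the list, 0.78 for Naglu, an enzyme of heparan sulfate breakdown, came from 7 reads in each control and 22 and 18 after depletion (adjusted p 0.362 in edgeR). Hexa, which encodes a subunit of lysosomal hexosaminidase, was at -0.20 (adjusted p 0.247 in edgeR), with both depletion libraries below both controls, and passed as lower with the recovered size factors (-0.30) and without control replicate 2 (-0.36).

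The 12 tested genes for sugar and sulfate donors and the 16 tested core proteins held no gene past the threshold, with medians of 0.01 and 0.03. At an unadjusted p under 0.05, 1 donor gene was lower and 0 were higher, and 0 core proteins were lower and 5 were higher, again beside 7.66% and 8.53% of all genes. The largest values were those of Uap1l1, at -0.38 (adjusted p 0.295 in edgeR), and of Vcan, the core protein versican, at 0.25 (adjusted p 0.267 in edgeR).

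**Figure D4:**
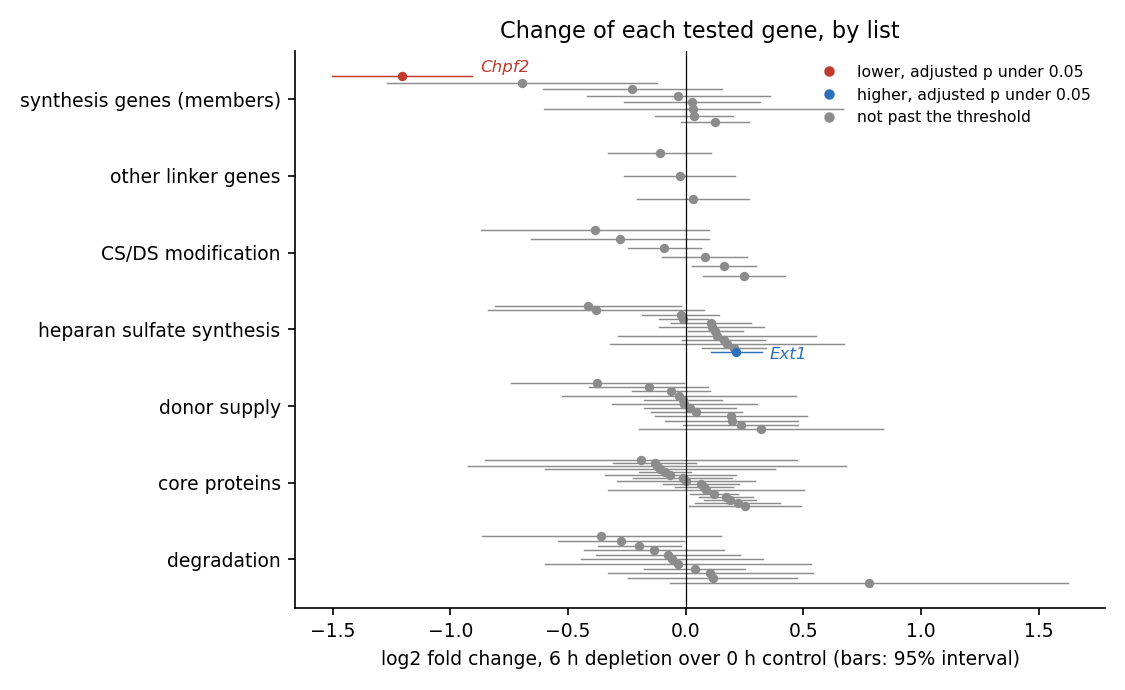
Log2 fold change (6 h depletion over 0 h control) of the 8 members and the 60 other tested genes of the pathway with its 95% interval, by list, from the members at the top to the breakdown enzymes at the bottom (CS/DS, chondroitin and dermatan sulfate). Chpf2, chosen by this comparison, is marked at -1.20, and among the other 60 genes Ext1, at 0.22, is the only one past the threshold.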

How the data were processed

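The authors deposited whole-number counts of reads per gene. Per the study's methods, identifiers (UMIs) were split off, adapters trimmed (cutadapt 1.18), reads mapped uniquely to mm10 (Bowtie 1.2.2) and collapsed by UMI, and the last base of each nascent RNA was turned to the direction of transcription and counted over whole genes with CAGE-corrected starts. Of their DESeq2 table, the mean normalized signal deposited by the authors served only to recover size factors (0.699, 0.740, 1.32 and 1.24). These differ between replicates, whereas the methods describe a spike-in factor shared by the replicates of a condition, so their origin is unresolved and they serve as an alternative scaling alone. Its fold changes, errors and p-values were not used.

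Counts were filtered with filterByExpr (minimum count 10, total 15; 11853 of 12486 genes kept), scaled with TMM and fitted over all genes in edgeR 4.0.16 (glmQLFit and glmQLFTest, two-sided, condition only, Benjamini-Hochberg adjustment; R 4.3.3). Intervals use the standard error implied by F. A gene was called at an adjusted p under 0.05. Replicates differed by more than counting noise (chi-square per degree of freedom 1.88 and 1.49). Total counts were 3298864, 3616429, 6045216 and 5670904. The p-values set the difference between the conditions against the spread between replicate libraries, estimated with information shared over genes. On simulated data (11853 genes), edgeR recovered 61% of changes of 0.5 and 95% of changes of 1.5 (log2), with 6.59% of calls false. These are averages over genes of all depths and do not give the rates for genes with few reads.

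Positions and spans came from GENCODE M21 (mm10), promoters from RefSeq. Members and lists were chosen with earlier results of these data known. A withheld item is not reported here. Named genes were the members, neighbours, called pathway genes or each list's largest change, and the 5 nearest profiles to Chpf2. Sh2b1, Rnf216, Zfp142, the genes sharing the 8-base sequence, and others named for contrast were chosen after their values were seen. Alternatives covered scaling, test (DESeq2 1.42.0, limma-voom in limma 3.58.1, edgeR's likelihood ratio test), low-count filter, a replicate block and leaving out each library.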

Additional observations from a re-analysis of the deposited data

How the results depend on the processing

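The log2 fold change of Chpf2, a value that chose it, ranged from -1.31 to -1.20 over scalings, tests, filters and the replicate block, and from -1.33 to -1.09 when libraries were left out in turn (without 1 control or 1 depletion library). In these fits the lone library of a group is assumed to vary like the other group. None of the other 7 members was called in any setting that tested it. B3gat3, Csgalnact2, Chsy1 and Chpf changed sign among the fits that left out 1 library (B3gat3 from -0.22 to 0.15, Chpf from -0.27 to 0.43). The number of pathway genes that were higher, 1, became 0 under scaling by library totals, 0 under the recovered size factors, 0 in DESeq2, 2 in limma-voom and 4 with the replicate block, and from 0 to 3 across the fits that left out 1 library; the number that were lower, 0, moved to 1 with the recovered factors and from 0 to 1 across those fits. The cause was not tested. Whether the shared replicate number marks a pairing is not settled. Deviations from the group mean correlated at 0.03 across conditions, a value that counting noise also lowers. The replicate block changed no call among the other 7 members, none of which was called in any setting. Over the whole table, 166 lower and 132 higher genes became 698 and 49 with the recovered factors, 61 and 14 in DESeq2, and 300 and 366 with the replicate block, and 202 and 64 with library totals. The 38 genes lower by 2-fold became 8 where a mean count of at least 100 was required, a filter that removed Xylt2, B4galt7, B3gat3 and Chpf among the members. Across the fits that left out 1 library, the whole table had from 76 to 227 lower and from 20 to 271 higher genes, and Zfp574 passed without control replicate 2 (0.57). Depth limits Chpf and Xylt2 most, with 13 to 37 counts a library.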
